A study of Mus musculus with 16 samples.

Results

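Genes for cytochrome P450 enzymes and for the enzymes that conjugate or hydrolyse foreign and endogenous compounds were compared between HdhQ111 and wildtype mice. Members were all genes on the array whose symbol begins with Cyp followed by a digit, or with Gsta, Gstm, Gstp, Gstt, Ugt, Sult or Ces, leaving out Cyp7b1, Cyp2d9 and Cyp4a14. This gave 47 of the 9026 named genes, on 53 of 12760 named rows. The members were 24 P450 genes, 12 glutathione transferases (3 alpha, 4 mu, 1 pi and 4 theta), 2 UDP-glucuronosyltransferases, 3 sulfotransferases and 6 carboxylesterases. Tissue came from 4 male HdhQ111/+ heterozygotes on C57BL/6J, 18 weeks old, which carry a lengthened CAG repeat knocked into 1 copy of the endogenous huntingtin gene. Each RNA of liver or brain was hybridised on 2-colour cDNA arrays against RNA pooled from 4 wildtype males of equal age. Each sample was hybridised on a dye-swapped pair of arrays, which makes 16 in all, and the same 4 heterozygotes gave both tissues. The pool was 1 control sample per tissue, so the spread among wildtype mice is left out of every test and any peculiarity of that pool enters the values of all 4 mice.

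P450 enzymes are heme proteins that oxidise drugs, toxins, fatty acids and sterols with electrons passed on by P450 reductase or, in mitochondria, by ferredoxin. Glutathione transferases, glucuronosyltransferases and sulfotransferases join the products to glutathione, glucuronic acid or sulfate, and carboxylesterases split esters of drugs and lipids. Hepatocytes hold the bulk of these enzymes, under the control of the nuclear receptors CAR and PXR, the aryl hydrocarbon receptor, NRF2 and liver factors such as HNF4A. In brain most are scarce, and several act there in sterol and neurosteroid turnover.

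The deposited values are log2 ratios, with the base assumed to be 2, so they give no level of any gene, and the tissue labels could not be checked against marker levels. A negative value is likely a lower level in the HdhQ111 mouse than in the wildtype pool. That direction rests on the channel order in the labels, and no source states it. Prolactin (Prl), chosen after its values were seen, bears on whether the dye-swapped arrays had been turned to 1 direction. In brain it averaged -4.11 where the HdhQ111 RNA was labelled with Cy5 and -4.38 where it was labelled with Cy3. It cannot show which direction that is, since both signs would turn together. Gene names were read 11 rows away from the values, an offset that no source states and that was chosen after the data were seen. An array held 19530 to 20584 values in 20794 rows, and precision is limited by how few arrays there are. In liver, the arrays differed in spread, with interquartile ranges of 0.382 to 1.271, widest in mouse 1 and narrowest in mouse 4. Both arrays of a liver correlated negatively over all rows (Pearson's r of -0.26, -0.24, -0.24 and -0.24 for mice 1 to 4), so dye orientation moved with the ratios. Both arrays of a brain did so too (Pearson's r of -0.16, -0.19, -0.09 and -0.13). Medians by dye are given for the families and pathway lists below.

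In liver, the members lay mostly below 0. Of 44 members measured in at least 3 mice, 35 had a mean ratio below 0, against 56.6% of the 8803 genes tested, and 9 had one above 0 (43.4% of all genes). Their median was -0.18, and that of all genes -0.03. Member medians were -0.31, -0.30, -0.18 and -0.0045 in mice 1 to 4, so that mouse 4 lay near 0 and the other 3 lay lower. The members below 0 in every mouse numbered 11 (14.1% of all genes tested), and 0 lay above 0 in every mouse (7.2% of all genes). No member passed limma's test with Benjamini-Hochberg adjustment, nor did any gene (0%), and the smallest adjusted p of a member was 0.575. At an unadjusted p under 0.05, 12 members were lower (5.24% of all genes) and 1, Cyp4f18, was higher (3% of all genes). With arrays centred and scaled to equal spread the 12 became 7. Without mouse 1, 2, 3 or 4 they became 4, 2, 4 and 16. The shares over all genes in these settings were not taken, so these changes cannot be read as particular to the members.

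Dye orientation moved with these values. Where the HdhQ111 RNA carried Cy3, the members' median was -0.39 and 35 lay below 0, whereas where it carried Cy5 the median was 0.032 and 20 lay below 0. Over all genes tested in liver, the median was -0.00225 in Cy5 and -0.059 in Cy3. Both orientations put 14 members below 0, and 36 were lower on the Cy3 than on the Cy5 arrays. Fitted on the Cy5 arrays alone, 0 members had an unadjusted p under 0.05 and a lower mean, and on the Cy3 arrays alone 21 did. For these counts by dye, the shares over all genes were not taken. Hepatocyte markers, a list of 17 genes, moved with the members: 15 were lower, their median was -0.18, and it was 0.11 on Cy5 and -0.47 on Cy3 arrays. Were every array a ratio of Cy5 over Cy3, the members' liver median would be 0.21 in place of -0.18. The part of dye or of hepatocyte RNA in the members' values was not tested, and fewer cells of a type cannot be told apart from less RNA per cell.

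**Figure D1:**
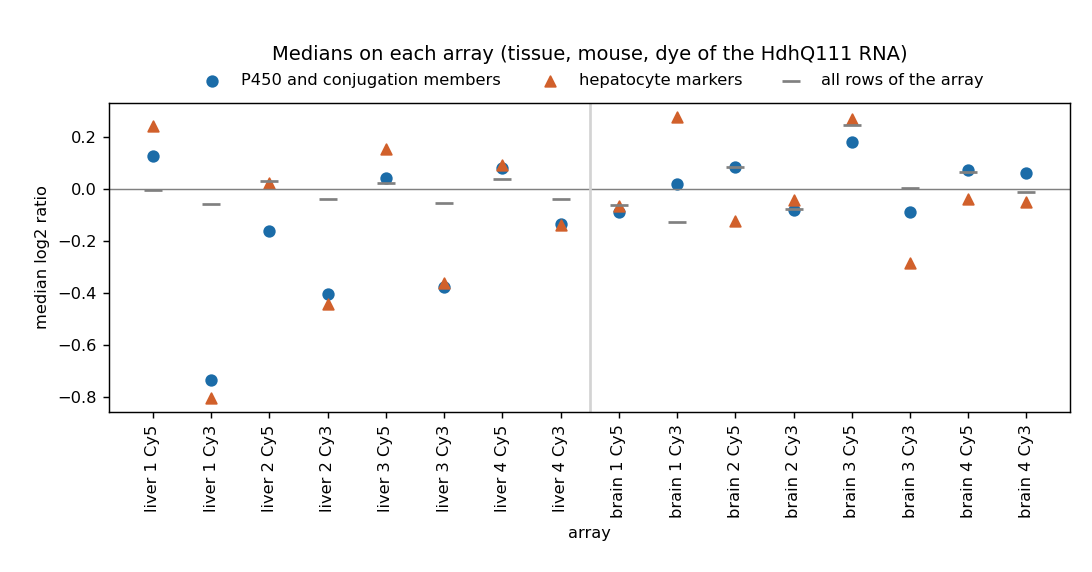
Median log2 ratio on each of the 16 arrays, by tissue, mouse and dye of the HdhQ111 RNA, for the members (circles), the hepatocyte markers (triangles) and all rows (bars). In liver the member median ran from -0.74 on the Cy3 array of mouse 1 to 0.13 on the Cy5 array of the same mouse, and the hepatocyte marker median from -0.81 to 0.24 on those arrays.

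**Figure D2:**
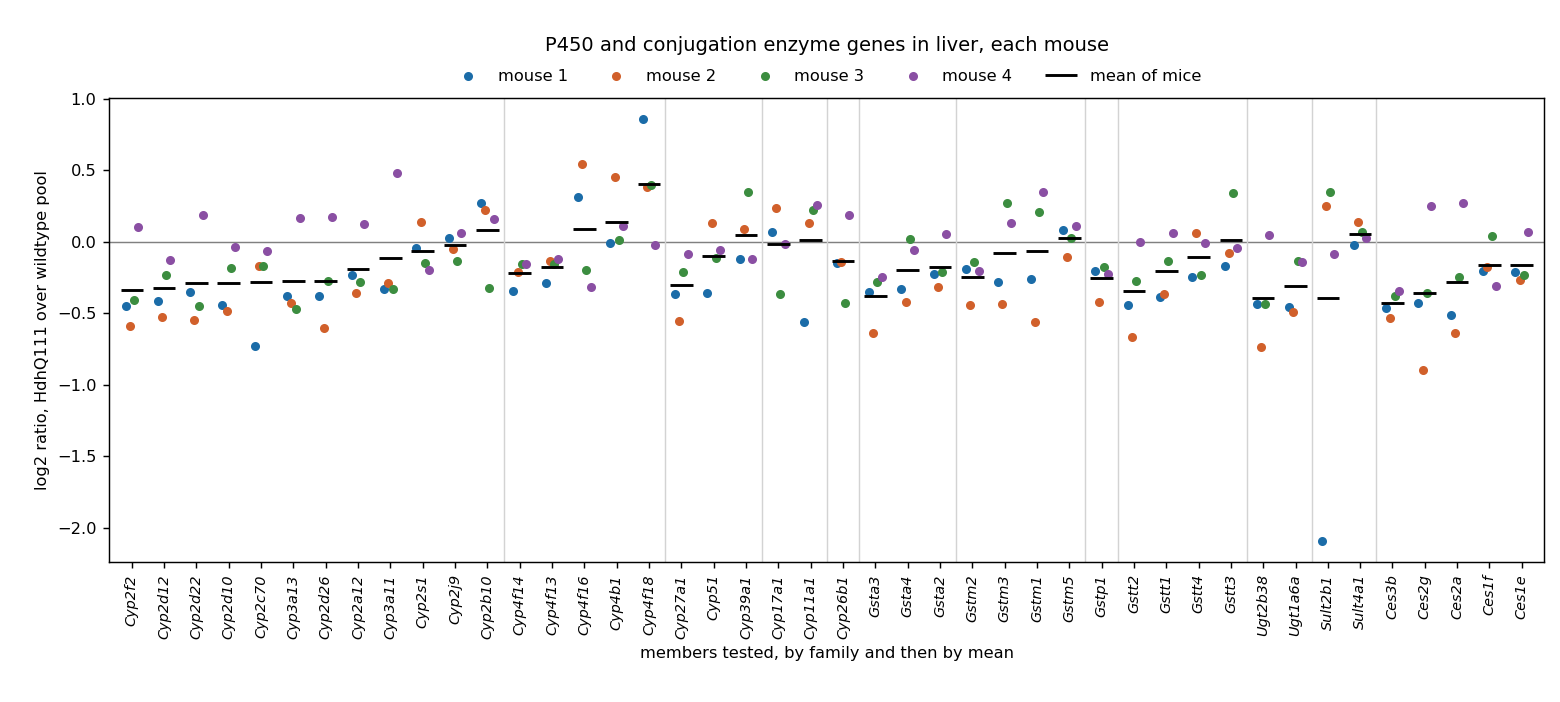
Log2 ratio (HdhQ111 over wildtype pool) of each tested member in liver, 1 point per mouse and a bar for the mean of mice, with families parted by vertical lines. Of 44 members 35 have a mean below 0, and in 14 of the 25 that lie below 0 in mice 1, 2 and 3 the point of mouse 4 is above 0.

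Promoter sequences of 4 members that lay below 0 in all 4 livers are shown, because they hold different start-site motifs: the carboxylesterase Ces3b, the alpha-class transferase Gsta3, the pi-class transferase Gstp1 and the bile acid hydroxylase Cyp2c70. Each is the 250 bases before a RefSeq start in GRCm38.p6, written 5′ to 3′ on the gene's strand. Ces3b (chr8:105083505-105083754, plus strand) has 2 CpG and its TATAAA in capitals. Gsta3 (chr1:21240335-21240584, plus strand) has 2 CpG and the antioxidant response element pattern TGACNNNGC in capitals. Gstp1 (chr19:4037913-4038162, minus strand) has 18 CpG and the xenobiotic response core GCGTG in capitals. Cyp2c70 (chr19:40187287-40187536, minus strand) has 4 CpG, with the HNF4A pattern CAAAGTCCA and, on the other strand, TATAAA in capitals.
Ces3b: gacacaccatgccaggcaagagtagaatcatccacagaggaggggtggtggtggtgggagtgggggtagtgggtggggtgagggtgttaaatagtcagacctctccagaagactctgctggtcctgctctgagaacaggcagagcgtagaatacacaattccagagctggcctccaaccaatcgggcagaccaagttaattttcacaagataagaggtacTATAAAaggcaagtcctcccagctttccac
Gsta3: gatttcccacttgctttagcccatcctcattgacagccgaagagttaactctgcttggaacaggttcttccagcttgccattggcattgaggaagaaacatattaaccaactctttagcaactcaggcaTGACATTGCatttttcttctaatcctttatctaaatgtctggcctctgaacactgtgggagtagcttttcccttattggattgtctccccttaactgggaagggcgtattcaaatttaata
Gstp1: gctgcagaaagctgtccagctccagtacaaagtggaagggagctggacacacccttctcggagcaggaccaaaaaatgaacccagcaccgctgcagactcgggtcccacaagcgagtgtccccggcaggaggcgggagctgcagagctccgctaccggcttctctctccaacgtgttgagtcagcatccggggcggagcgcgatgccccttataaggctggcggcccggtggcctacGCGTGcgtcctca
Cyp2c70: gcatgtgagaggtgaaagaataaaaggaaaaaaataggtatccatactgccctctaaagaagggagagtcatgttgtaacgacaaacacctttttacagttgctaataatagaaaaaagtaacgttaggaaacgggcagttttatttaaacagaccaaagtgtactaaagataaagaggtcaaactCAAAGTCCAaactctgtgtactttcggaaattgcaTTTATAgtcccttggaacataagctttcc
RefSeq windows were found for 38 of the 47 members, 45 windows in all, and were compared with 32851 windows of 27025 genes, each motif searched on both strands. TATAAA was in 20% of the member windows and 12.4% of all windows, and CAAAGTCCA in 4.44% and 0.384%. The member windows with CAAAGTCCA were those of Cyp2c70 and Cyp3a11, both hepatocyte enzymes. TGACNNNGC was in 8.89% and 10.2%, and GCGTG in 24.4% and 28.2%. A member window held a median of 3 CpG, and a window of all genes 6. These are matches of letters in a short window, and no binding was measured.

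P450 families 1 to 3, which metabolise drugs and other foreign compounds, were lower in 11 of 12 members (56.6% of all genes), with a median of -0.27. All 12 were Cyp2 or Cyp3 genes, and no Cyp1 gene was among the members. By dye the median was 0.053 with the HdhQ111 RNA in Cy5 and -0.53 with it in Cy3. The 4 genes of the Cyp2d cluster, drug and steroid hydroxylases, lay close together, from -0.32 to -0.27. Cyp2d12 was at -0.42, -0.52, -0.23 and -0.13 in mice 1 to 4 (-0.32 ± 0.18, SD, n = 4; limma unadjusted p = 0.0202, adjusted p = 0.575). Cyp2d10 was at -0.44, -0.49, -0.18 and -0.04 (-0.29 ± 0.21; limma unadjusted p = 0.0415). Both lay below 0 in all 4 mice, whereas Cyp2d22 (-0.29 ± 0.33) and Cyp2d26 (-0.27 ± 0.32) lay above 0 in mouse 4. On the Cy5 arrays alone Cyp2d12 and Cyp2d10 were at 0.045 and 0.032.

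Cyp2f2, a hydroxylase of periportal hepatocytes and airway club cells that activates naphthalene, was at -0.45, -0.59, -0.41 and 0.11 in the 4 livers (-0.34 ± 0.30; limma unadjusted p = 0.0475). Mouse 4 lay above 0 and the other 3 below it. Cyp2c70, which makes the muricholic acids of rodents, was at -0.73, -0.17, -0.17 and -0.06 (-0.28 ± 0.30; limma unadjusted p = 0.079). Its 4 values were all below 0, with mouse 1 far below the other 3. Cyp3a11, the main PXR-induced P450 of mouse liver, was at -0.33, -0.29, -0.33 and 0.48 (-0.12 ± 0.40), and Cyp3a13 at -0.38, -0.43, -0.47 and 0.16 (-0.28 ± 0.30). In both, mouse 4 stood above 0 and apart from the other 3. Cyp2b10, the classic CAR target, was the 1 member of these families above 0, at 0.27, 0.22, -0.33 and 0.16 (0.083 ± 0.28). Cyp2a12 was at -0.19 ± 0.21, and Cyp2s1 and Cyp2j9, at -0.06 ± 0.15 and -0.02 ± 0.09, lay within their spread of 0.

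P450 family 4, the fatty acid and eicosanoid hydroxylases, had 2 of 5 members lower in liver. Its median was 0.087, which was 0.032 with the HdhQ111 RNA in Cy5 and 0.14 with it in Cy3. That sign was not stable: the median was -0.0665 without mouse 2, 0.0107 without mouse 1, -0.0037 with arrays centred and scaled and -0.22 with no row offset. Cyp4f18, a leukotriene hydroxylase of myeloid cells, was at 0.86, 0.38, 0.40 and -0.02 in mice 1 to 4 (0.40 ± 0.36; limma unadjusted p = 0.0369, adjusted p = 0.575). Mouse 1 was highest and mouse 4 lay near 0. By dye the mean was 0.24 with the HdhQ111 RNA in Cy5 and 0.56 with it in Cy3. Cyp4f14, a hydroxylase of leukotrienes and vitamin E, was at -0.35, -0.21, -0.16 and -0.15 (-0.22 ± 0.09; limma unadjusted p = 0.0476). Cyp4f13 was at -0.29, -0.13, -0.16 and -0.12 (-0.18 ± 0.08; limma unadjusted p = 0.0869). Cyp4f18 lay above both in every mouse, a difference that was not tested. Both were above 0 on the Cy5 arrays alone, at 0.044 and 0.01. Cyp4b1 (0.14 ± 0.21) and Cyp4f16 (0.09 ± 0.41) had values on both sides of 0. Markers of Kupffer cells and macrophages were lower in 5 of 9 in liver, with a median of -0.12. Blood cell markers, which mix several cell types, were lower in 5 of 12, with a median of 0.0093. Of their myeloid genes, S100a8 was at 2.44, 0.64, 0.17 and 0.89 in mice 1 to 4 (1.03 ± 0.98). S100a9 was at 0.0081 ± 0.10 and Mpo at 0.10 ± 0.19. The part of myeloid cells in the Cyp4f18 values was not tested.

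Of the sterol P450s, Cyp27a1, the mitochondrial hydroxylase that opens the acidic route of bile acid synthesis, was at -0.37, -0.56, -0.21 and -0.08 in liver (-0.30 ± 0.20; limma unadjusted p = 0.0316). All 4 mice were below 0, and the means by dye were -0.07 with the HdhQ111 RNA in Cy5 and -0.54 with it in Cy3. Cyp51, the lanosterol demethylase of cholesterol synthesis, was at -0.10 ± 0.20, and Cyp39a1, an oxysterol hydroxylase, at 0.05 ± 0.22, both with values on either side of 0. The steroid hormone enzymes lay around 0 as well: Cyp17a1, the steroid hydroxylase and lyase, at -0.02 ± 0.25, and Cyp11a1, which cleaves the cholesterol side chain, at 0.01 ± 0.39. Cyp11a1 was at -0.56 in mouse 1 and 0.13, 0.22 and 0.26 in mice 2 to 4. Cyp21a1, the adrenal hydroxylase, had values in 2 livers (0.29 and 1.09) and was not tested. Cyp26b1, which clears retinoic acid, was at -0.13 ± 0.25. With the HdhQ111 RNA in Cy5, the median of the sterol P450s was -0.07 and that of the tested steroid hormone enzymes -0.23. With it in Cy3 these medians were -0.34 and 0.23. Cyp26b1 averaged 0.12 in Cy5 and -0.38 in Cy3.

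Among the glutathione transferases, all 3 alpha-class genes were lower in liver. Gsta3 was at -0.35, -0.64, -0.28 and -0.25 in mice 1 to 4 (-0.38 ± 0.18; limma unadjusted p = 0.0102, adjusted p = 0.575). It lay below 0 in every mouse. By dye it averaged -0.02 with the HdhQ111 RNA in Cy5 and -0.74 with it in Cy3. Gsta4, which conjugates lipid aldehydes, was at -0.20 ± 0.21 and Gsta2 at -0.17 ± 0.16. Gstp1, the pi-class enzyme, was at -0.21, -0.42, -0.18 and -0.22 (-0.26 ± 0.11; limma unadjusted p = 0.0296). It too was below 0 in every mouse, as was Gstm2 at -0.19, -0.44, -0.14 and -0.21 (-0.24 ± 0.13; limma unadjusted p = 0.0414). With the HdhQ111 RNA in Cy5 Gstp1 averaged -0.07 and Gstm2 -0.10, and with it in Cy3 they averaged -0.44 and -0.39. The median of the alpha class was -0.07 in Cy5 and -0.27 in Cy3, and that of the mu class 0.19 and -0.36. The other mu-class genes gave Gstm3 -0.08 ± 0.33, Gstm1 -0.07 ± 0.42 and Gstm5 0.03 ± 0.10. With arrays centred and scaled Gstm3 and Gstm1 lay above 0, so the 3 of 4 mu-class genes below 0 rest on the scaling. In Gstm1 and Gstm3 mice 1 and 2 were below 0 and mice 3 and 4 above it.

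The theta-class genes were lower in 3 of 4, with a median of -0.16. That median was -0.22 with the HdhQ111 RNA in Cy5 and -0.24 with it in Cy3. These like medians hid changes of sign in single genes. Gstt1 averaged 0.13 in Cy5 and -0.54 in Cy3, Gstt4 -0.24 and 0.027, and Gstt3 -0.45 and 0.47. Gstt2 was at -0.44, -0.66, -0.28 and 0.0015 (-0.34 ± 0.28; limma unadjusted p = 0.0362), and Gstt1 at -0.21 ± 0.21. Mouse 4 again stood nearest to 0 in Gstt2, whose means by dye were -0.19 in Cy5 and -0.50 in Cy3. Gstt4 was at -0.11 ± 0.15 and Gstt3 at 0.01 ± 0.22, the latter at -0.018 with arrays centred and scaled.

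Both glucuronosyltransferases were lower in liver, with a median of -0.35, which was 0.0745 with the HdhQ111 RNA in Cy5 and -0.77 with it in Cy3. Ugt1a6a, which conjugates phenols, was at -0.46, -0.49, -0.14 and -0.14 in mice 1 to 4 (-0.31 ± 0.19; limma unadjusted p = 0.0279). Ugt2b38, of the steroid-conjugating family, was at -0.44, -0.74, -0.44 and 0.05 (-0.39 ± 0.33; limma unadjusted p = 0.0327). Ugt1a6a was below 0 in all 4 mice and Ugt2b38 in the first 3. On the Cy5 arrays alone they were at 0.056 and 0.093. Of the sulfotransferases, Sult2b1, which acts on cholesterol and pregnenolone, was at -2.09, 0.25, 0.35 and -0.09 (-0.39 ± 1.15). Its mean rests on mouse 1, and without that mouse it was 0.17. Sult4a1, an orphan enzyme of neurons, was at 0.05 ± 0.07. The median of Sult2b1 and Sult4a1 was 0.045 with the HdhQ111 RNA in Cy5 and -0.39 with it in Cy3. Sult1a1, the main phenol sulfotransferase, had values in 2 livers (-0.33 and -1.17) and was not tested.

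All 5 tested carboxylesterases were lower in liver, with a median of -0.28, which was -0.05 with the HdhQ111 RNA in Cy5 and -0.55 with it in Cy3. Ces3b, an esterase of the hepatocyte endoplasmic reticulum, was at -0.47, -0.53, -0.38 and -0.35 (-0.43 ± 0.08; limma unadjusted p = 0.00256, adjusted p = 0.575). Its 4 mice lay close together, all below 0. Its 2 rows lay 14374 rows apart and gave -0.47 and -0.39, each below 0 in every mouse. By dye, Ces3b averaged -0.05 with the HdhQ111 RNA in Cy5 and -0.81 with it in Cy3. Ces2g was at -0.43, -0.90, -0.36 and 0.25 (-0.36 ± 0.47), and Ces2a at -0.51, -0.64, -0.25 and 0.27 (-0.28 ± 0.40). In both, mouse 4 was above 0 and the others were below it. Ces1e and Ces1f were at -0.16 ± 0.15 each. Ces1c had a value in 1 liver (-1.84) and was not tested.

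**Figure D3:**
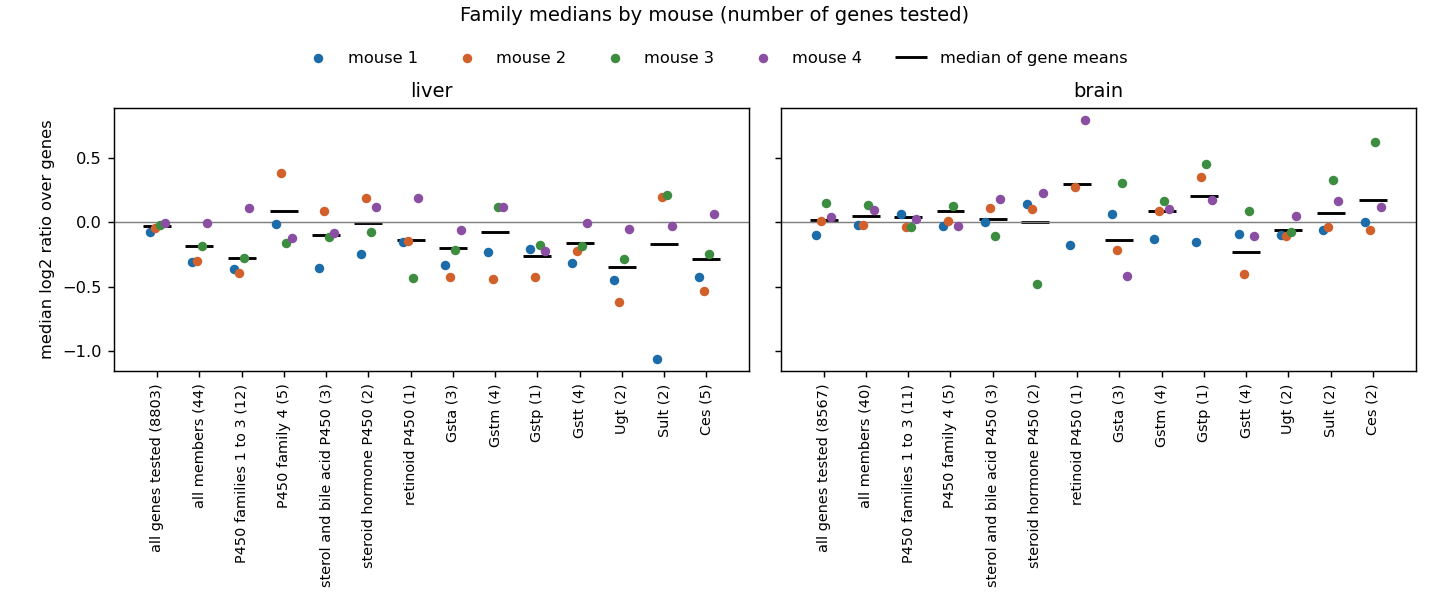
Median log2 ratio over the tested genes of each family in liver (left) and brain (right), 1 point per mouse and a bar for the median of the gene means, with the number of genes in brackets. In liver the bars run from -0.35 (Ugt) to 0.087 (P450 family 4), while all genes lie at -0.03. In either tissue the mouse points of most families lie on both sides of 0. Those of Gsta, Gstp, Gstt and Ugt lie below 0 in every liver.

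The other genes with more than 1 row showed how far rows of a gene agree. In liver Cyp2d26 gave -0.38 and -0.16, Gsta4 -0.31 and -0.087, Cyp51 -0.16 and 0.072, Gstm5 0.092 and -0.033, and Sult4a1 0.013 and 0.094. Differences of this size are as large as many of the members' means. Of the 12 lower members with an unadjusted p under 0.05, Ces3b, Gsta3, Gstp1, Cyp27a1, Gstt2 and Gstm2 were below 0 also on the Cy5 arrays alone, and Cyp2d12, Cyp2d10, Cyp2f2, Cyp4f14, Ugt1a6a and Ugt2b38 were not.

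**Figure D4:**
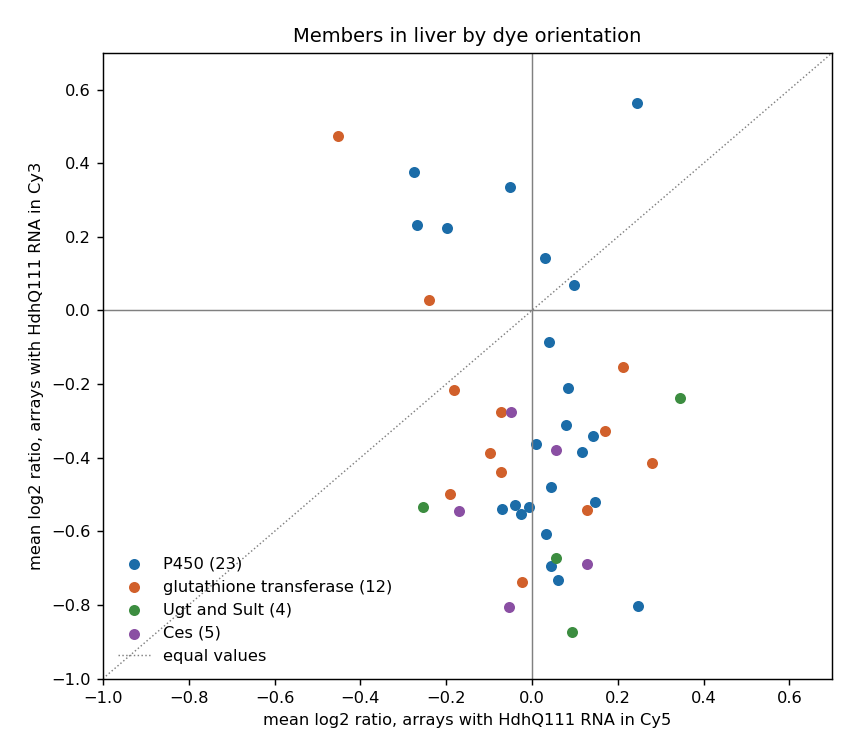
Mean log2 ratio of each member in liver with the HdhQ111 RNA labelled with Cy5 (x axis) and with Cy3 (y axis), with colours for the enzyme groups and a dotted line of equal values. Of the 44 points 36 lie under the dotted line, and 14 lie below 0 on both axes.

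Members that are neighbours in the genome were described together. Placed in the order of RefSeq protein-coding genes, 27 of the 47 members fell into 9 runs, with neighbours at most 10 genes apart. All tested members were lower in liver in the Cyp2d run (4 of 4), in the run of Ces2a, Ces2g and Ces3b (3 of 3), and in the runs of Gsta4 with Gsta2, Cyp2a12 with Cyp2f2, and Ces1e with Ces1f. The theta and mu transferase runs had 3 of 4 lower each, and Cyp4f16, Cyp4f14 and Cyp4f13 had 2 of 3. The run of Cyp2s1 with Cyp2b10 had 1 of 2 lower (-0.063 and 0.083). Members of a run are close in sequence, and signal shared between paralogs on cDNA probes was not examined, so they are not independent.

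Across the 44 members, liver ratios of mice 1 and 2 had a Spearman's rho of 0.60, mice 2 and 3 of 0.48, and mice 1 and 3 of 0.25. Mouse 4 gave -0.05, -0.15 and -0.23 with mice 1, 2 and 3. Over 8251 genes the 6 pairs lay between 0.035 and 0.22. There too mice 1 and 2 were most alike, and mouse 4 gave 0.035, 0.042 and 0.11 with mice 1, 2 and 3. Mouse 4 thus stood apart over all genes as well. These correlations describe genes that share the pool and the platform, and genes are not independent replicates. The members' order was thus most alike in mice 1 and 2, and mouse 4 did not share it.

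Other genes of drug metabolism are given by list, to be read against the 56.6% of all genes that lay below 0 in liver; no gene of any list passed limma's adjusted test. In the list for electron transfer and heme turnover, which includes the heme-degrading Hmox1 and Hmox2, 10 of 12 genes lay below 0 and the median was -0.16. By dye that median was 0.0029 with the HdhQ111 RNA in Cy5 and -0.35 with it in Cy3. Alas1, the rate-limiting enzyme of hepatic heme synthesis, was at -0.77, -0.44, -0.42 and -0.63 (-0.57 ± 0.16; limma unadjusted p = 0.00131). Cyb5r3, which passes electrons to cytochrome b5, was at -0.54, -0.50, -0.38 and -0.24 (-0.42 ± 0.13; limma unadjusted p = 0.0045), and Cyb5a, cytochrome b5 itself, at -0.31 ± 0.13. All 3 lay below 0 in every mouse, with an adjusted p of 0.575. Alas1 averaged -0.40 in Cy5 and -0.74 in Cy3, and Cyb5r3 -0.28 and -0.55. Other enzymes of the first phase of drug metabolism were lower in 16 of 22, with a median of -0.16 (0.030 in Cy5 and -0.41 in Cy3). Among them the alcohol dehydrogenase Adh1 was at -0.40 ± 0.08 and the retinal dehydrogenase Aldh1a1 at -0.49 ± 0.27. Adh1 averaged -0.11 in Cy5 and -0.68 in Cy3, and Aldh1a1 -0.25 and -0.73. Other conjugation enzymes were lower in 16 of 21, with a median of -0.13 (-0.08 in Cy5 and -0.34 in Cy3). The methyltransferases Inmt and Gamt were at -0.56 ± 0.15 and -0.42 ± 0.18. In Cy5 they averaged -0.33 and -0.16, and in Cy3 -0.79 and -0.68. Transporters of drugs and conjugates were lower in 4 of 7, a share near that of all genes, with a median of -0.02 (0.165 in Cy5 and -0.12 in Cy3).

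The receptors and liver factors that act on these genes were lower in 12 of 18, against 56.6% of all genes, with a median of -0.05 (0.11 in Cy5 and -0.25 in Cy3). Stat5b, which carries the growth hormone signal, was at 0.25, 0.56, 0.24 and 0.27 (0.33 ± 0.16; limma unadjusted p = 0.015), above 0 in every mouse but at -0.038 on the Cy3 arrays alone. Nr5a2, a bile acid gene regulator, was at -0.29 ± 0.25, and at 0.084 in Cy5. Lists of target genes, which overlap with the members, were lower in 10 of 11 for CAR and PXR (median -0.24), 4 of 4 for the aryl hydrocarbon receptor (-0.20) and 13 of 18 for NRF2 (-0.14). With the HdhQ111 RNA in Cy5 these medians were 0.0785, -0.056 and 0.012, and in Cy3 -0.41, -0.15 and -0.30. The list for the aryl hydrocarbon receptor held no Cyp1 gene. By place in the lobule, 8 of 8 tested pericentral members (median -0.22) and 5 of 6 periportal members (-0.24) were lower, with medians of 0.067 and -0.015 in Cy5 and -0.48 and -0.46 in Cy3. By sex bias, 3 of 3 male-biased members (-0.34) and 1 of 2 female-biased ones (-0.0040) were lower, with medians of 0.060 and -0.36 in Cy5 and -0.73 and 0.35 in Cy3. Markers of other cells in liver were lower in 3 of 7 for cholangiocytes (median 0.013), 4 of 8 for stellate cells (0.020), 5 of 7 for endothelium (-0.11), 1 of 5 for pancreas (0.19) and 3 of 8 for brain cells (0.036). The levels of these markers are not given by ratios, and their part in the members' values was not tested.

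In brain the members lay close to all genes. Of 40 members tested, 27 were above 0, against 56.7% of the 8567 genes tested, and 13 were below it (43.3%). Their median was 0.048, and that of all genes 0.023. No member passed limma's adjusted test (smallest adjusted p 0.999), against 0.035% of all genes, which were Prl, Pomc and Crybb2. At an unadjusted p under 0.05, 1 member was higher (1.89% of all genes) and 0 were lower (2.03%). The member was Cyp11a1, the first enzyme of steroid synthesis, at 0.50, 0.23, 0.60 and 0.34 (0.41 ± 0.16; limma unadjusted p = 0.0136). It was above 0 in all 4 brains, while in liver its mean was 0.01. In all, 3 members were above 0 in every brain with a value (6.6% of all genes), namely Cyp11a1, Gstm3 and Ugt1a6a. Gsta3 and Gstt4 were the 2 below 0 in every such brain (4.66%). Members varied more among mice in brain than in liver, with a median SD of 0.36 against 0.21, and all genes had 0.28 and 0.23.

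The next members by p in brain were 2 theta-class transferases, Ugt2b38 and Gstm3. Gstt3 was at -0.74, -0.90, 0.15 and -0.33 (-0.45 ± 0.47; limma unadjusted p = 0.055). Gstt4 was at -0.35, -1.18 and -0.12 in mice 1, 3 and 4 (-0.55 ± 0.56, n = 3; limma unadjusted p = 0.065). On the Cy3 arrays alone both lay above 0, at 0.04 and 0.57. Ugt2b38 was at -0.32 ± 0.29, and Gstm3, without a value in mouse 2, at 0.32 ± 0.23 (n = 3). Ces2g, Ces2a, Ces1f, Ces1c, Cyp2b10, Cyp21a1 and Sult1a1 had values in too few brains to be tested.

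The tissues were compared directly for the 40 members tested in both. The difference of liver minus brain was below 0 in 28 (57.4% of 8483 genes) and above it in 12 (42.6%), with a median of -0.22, against -0.048 for all genes. No member passed limma's adjusted test of the difference (0.0236% of genes did), and 4 were lower in liver at an unadjusted p under 0.05 (4.61% of genes), with 0 higher (2.61%). In 4 members every liver mouse lay below every brain mouse (3.65% of genes), and in 0 above (1.69%). With the mouse as a block, a pairing given by the labels, 28 were again lower, the median was -0.20 and 0 passed the adjusted test. At an unadjusted p under 0.05, 4 members were then lower (4.4% of genes) and 1 was higher (2.72%): Cyp2d22 dropped out, Gstt2 entered, and Gstt3 was higher in liver by 0.46 (limma unadjusted p = 0.0332 with the block and 0.0818 without it).

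Ces3b had the smallest p of the difference. With its 2 rows averaged, its 4 livers, from -0.53 to -0.35, lay below its brains, at 0.47, -0.17, 0.63 and -0.14. The difference was -0.63 (SE 0.21; limma unadjusted p = 0.0125, adjusted p = 0.677). Its rows did not agree in brain. The first gave -0.45 in brain of mouse 4, below its own livers of mice 3 and 4 (-0.37 and -0.39). The other had brain values in mice 2 and 4 only (-0.16 and 0.18). Ugt1a6a had brain values of 0.02, 0.19, 0.53 and 0.09, all above 0, where all 4 livers were below 0, and a difference of -0.52 (SE 0.17; limma unadjusted p = 0.0125). Gstp1 had brain values of -0.15, 0.35, 0.46 and 0.17 and a difference of -0.46 (SE 0.17; limma unadjusted p = 0.0199). Its livers all lay below its brains. Cyp2d22 differed by -0.50 (SE 0.22; limma unadjusted p = 0.0429, and 0.0563 with the mouse as a block) and Gstt2 by -0.49 (SE 0.22; limma unadjusted p = 0.0516, and 0.017 with the mouse as a block). In both, values of the tissues overlapped. Cyp4f14 was the other member with every liver below every brain, beside Ces3b, Ugt1a6a and Gstp1.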

How the data were processed

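The authors deposited normalized log2 ratios for 20794 rows on 16 arrays. How the arrays were scanned, corrected for background and normalized is not given in the sources used here, and base 2 was assumed. Per the labels' protocols, total RNA was isolated on columns, and its cDNA was labelled indirectly with either dye. All 12771 platform symbols matched a current gene through Entrez, and 8034 rows were left unnamed. Values over 10 in size (5 of members) were set missing, both arrays of a mouse and then the rows of a gene were averaged, and a gene was tested where 3 mice had a value. In R 4.3.3, limma 3.58.1 tested the mouse means against 0 (two-sided), with Benjamini-Hochberg adjustment at 0.05 over all genes. The difference between tissues was fitted over the mouse values, with the mouse as a block as an alternative. The block is a true pairing, since both tissues came from the same mice. Spearman's rho between the deviations of both tissues of a mouse was 0.058, -0.0015, 0.083 and 0.036 over 7435 genes, against means of -0.026, 0.012, -0.025 and -0.013 with other mice. The fits were tested on simulated data. Named genes were the 3 smallest p and the extremes of each family in liver, the 5 smallest p in brain and in the difference, and up to 3 of the smallest p of each other list. Genes of the families outside this rule, and Prl, Pomc, Crybb2, S100a8, S100a9 and Mpo, were named after their values were seen. The members and lists were chosen with earlier results of these data known. Alternatives were dye orientation, centring, scaling, the row offset, the value limits, leaving out each mouse and robust estimation.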

Additional observations from a re-analysis of the deposited data

Results flagged for a closer look

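Cyp11a1 in liver was at -0.56 in mouse 1, far from the other 3 mice (0.13 to 0.26). The gap was 0.848 of the whole range, above the critical value of Dixon's test for 4 samples, which chance passes in about 1 in 20 groups. The check covered only genes named by the stated rule and the medians of the members and families. Cyp3a11, Cyp3a13 and Cyp2c70, each with 1 mouse apart from the other 3 in liver, were outside it.

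Ugt1a6a differed in direction between the tissues, below 0 in all 4 livers and above 0 in all 4 brains. The difference was -0.52, with a limma unadjusted p of 0.0125 and an adjusted p of 0.677, so it did not pass over all genes. On the Cy5 arrays alone it was 0.0135.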

How the results depend on the processing

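In no setting run did a member pass the adjusted threshold in liver, brain or their difference, with robust estimation and the mouse block included. The cause of each change below was not tested, and shares over all genes in the changed settings were not taken. On the Cy5 arrays alone, 21 of 45 liver members were lower (median 0.0315, 0 with unadjusted p under 0.05) and the median difference between tissues was -0.00913. There the liver values of Cyp2d12 (0.045), Cyp2d10 (0.0323), Cyp2f2 (0.0603), Cyp4f14 (0.044), Cyp4f13 (0.01), Cyp51 (0.142), Cyp39a1 (-0.276), Cyp11a1 (-0.197), Cyp26b1 (0.116), Gstm3 (0.17), Gstm1 (0.28), Gstt1 (0.129), Gstt3 (-0.452), Ugt1a6a (0.056), Ugt2b38 (0.093), Ces2a (0.129), Ces1e (0.0568) and Nr5a2 (0.0843) reversed, as did the Ugt1a6a difference (0.0135). On the Cy3 arrays alone, the liver median was -0.401, with 21 lower at an unadjusted p under 0.05, and the median difference -0.448. There Cyp17a1 (0.233), Gstm5 (-0.153), Gstt4 (0.0273), Sult4a1 (-0.238) and Stat5b (-0.0385) reversed in liver, and Gstt3 (0.0395) and Gstt4 (0.569) in brain. With arrays centred and scaled, 7 liver members had an unadjusted p under 0.05, and Gstm3 (0.0189), Gstm1 (0.0677) and Gstt3 (-0.0184) reversed.

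With names read at no offset, 28 of 47 liver members were lower (median -0.04). At the offset used, 35 of 44 were lower, against 56.6% of all genes. With no offset 7 liver members were lower at an unadjusted p under 0.05, 25 brain members were lower, and the median difference was -0.0903. Reversed in liver were Cyp4f18 (-0.235), Cyp4f14 (0.265), Cyp27a1 (0.0709), Cyp51 (0.126), Cyp17a1 (0.0714), Cyp11a1 (-0.0394), Gsta3 (0.00313), Gsta4 (0.113), Gstm5 (-0.0871), Gstp1 (0.159), Gstt1 (0.0421), Gstt4 (0.0336), Gstt3 (-0.0179), Ugt1a6a (0.0465), Ugt2b38 (0.00238), Sult2b1 (0.282), Sult4a1 (-0.214), Ces2g (0.06), Alas1 (0.0796), Cyb5r3 (0.114), Nr5a2 (0.418) and Inmt (0.233). In brain Gstt4 (0.139) and Gstm3 (-0.49) reversed, and in the difference Ugt1a6a (0.145), Gstp1 (0.186) and Cyp2d22 (0.669). A reading of every array as Cy5 over Cy3, added after seeing the data, gave 8 lower in liver (median 0.206, 1 at an unadjusted p under 0.05) and 12 lower in the difference (median 0.168).

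Leaving out each mouse gave 2 to 16 lower liver members at an unadjusted p under 0.05, and ranges of -0.05 to 0.107 for Cyp39a1, -0.104 to 0.0975 for Cyp17a1, -0.0678 to 0.206 for Cyp11a1, -0.195 to 0.0407 for Gstm3, -0.205 to 0.0983 for Gstm1, -0.099 to 0.0708 for Gstt3 and -0.641 to 0.171 for Sult2b1 in liver. The replicate block left 28 members lower in the difference (median -0.20) and 0 past the threshold. Signal over background could not be examined from ratios.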
